A study of Mus musculus with 17 samples.

Results

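The genes described here encode the translation initiation factor eIF2 and its exchange factor eIF2B, the protein that the small molecule ISRIB binds. The members, chosen by symbol and mapped to Ensembl gene IDs, were the 5 eIF2B subunit genes Eif2b1, Eif2b2, Eif2b3, Eif2b4 and Eif2b5 and the eIF2 genes Eif2s1 (alpha subunit) and Eif2s2 (beta subunit). They are 7 of the 43430 gene IDs counted, and all 7 passed the filter on low counts in both experiments. The third eIF2 subunit, gamma, is encoded by Eif2s3x and, on the Y chromosome, by Eif2s3y. Both genes are reported beside the members.

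Each of the 17 RNA-seq libraries was made from alveolar epithelial type 2 (AT2) cells, the surfactant-secreting cells of the lung alveolus, sorted by flow cytometry from C57BL/6J mice aged 2 months. In the first experiment, 4 libraries from naive mice given vehicle (saline in the titles) and 4 from naive mice given ISRIB, both 24 h after the dose, were made from 3 ng of RNA with poly(A) selection. In the second, naive mice gave 4 libraries, and 5 came from animals 14 days after bleomycin, a drug that injures the lung and is followed by fibrosis, and all 9 were made from 0.35 ng with a total-RNA kit. Mice of both groups of the second experiment were also given saline or vehicle per the labels, and no label of that experiment names ISRIB. No group carries a transgene or a deletion in the labels, which give neither drug dose, nor say whether each library came from its own mouse. P-values therefore measure the spread between these libraries. Because the kits differ, levels were compared only within an experiment.

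eIF2 bound to GTP brings the initiator tRNA to the small ribosomal subunit, and leaves bound to GDP. eIF2B exchanges that GDP for GTP: Eif2b5 (epsilon) is the catalytic subunit and works with Eif2b3 (gamma), while Eif2b1 (alpha), Eif2b2 (beta) and Eif2b4 (delta) form the regulatory part that senses phosphorylated eIF2. In the integrated stress response, stress kinases phosphorylate eIF2 alpha, which then inhibits eIF2B. Most translation falls while a few mRNAs, such as that of the transcription factor Atf4, are translated more. ISRIB binds a pocket where the beta and delta subunits meet, stabilises the assembled eIF2B and so restores exchange. That action is on the protein, whereas the values below are mRNA levels.

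The residue on which the pathway turns is a serine of eIF2 alpha, whose codon lies in exon 2 of Eif2s1 at chr12:78866680-78866682 (GRCm38, forward strand). It is codon 52 of ENSMUST00000071230 counting the start codon, and 51 without it, which is the numbering in use for the protein. The coding stretch around it, chr12:78866650-78866712, is printed 5′ to 3′ to show the site that the kinases modify, with the serine codon in capitals.
Eif2s1: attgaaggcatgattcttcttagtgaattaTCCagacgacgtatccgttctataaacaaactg

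The members lie on 5 chromosomes in GRCm38. Eif2b1 (ENSMUSG00000029388) is at chr5:124570213-124579131 on the reverse strand and Eif2b4 (ENSMUSG00000029145) at chr5:31187558-31193430, also reverse. Eif2b2 (ENSMUSG00000004788) is at chr12:85219481-85226628 and Eif2s1 (ENSMUSG00000021116) at chr12:78861819-78887010, both forward. Eif2b3 (ENSMUSG00000028683) is at chr4:117019402-117087306, forward. Eif2b5 (ENSMUSG00000003235) is at chr16:20498817-20509323, forward. Eif2s2 (ENSMUSG00000074656) is at chr2:154871410-154892935, reverse. Eif2b4 alone among them shares exon bases with another gene model, 204 bp (7.85% of its exon length) with Snx17 on the opposite strand. No source used here gives the strand setting of the authors' counting, so reads in that overlap could belong to either gene. Eif2s1 and Eif2s2 have near-identical processed copies elsewhere in the genome, of which Gm9892 matches Eif2s2 over 992 bp at 99.5% identity. None of the copies that the tables list held more than 7 counts in a library, and how the counting split reads between copies is not known.

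Library totals were 10493574 to 15727139 counts with poly(A) selection and 3295257 to 6333166 with the total-RNA kit. Members had 77 to 865 counts per poly(A) library and 19 to 479 per total-RNA library. The edgeR estimate of the common variation between replicates was 7.66% in the first and 21.1% in the second. Gene models of structural RNA and the mitochondrial genome took 3.66% to 4.64% of poly(A) counts and 22.5% to 34.5% of total-RNA counts. Naive libraries detected 17108 to 19763 genes and bleomycin libraries 13940 to 17112. The fewest were in bleomycin 4, the highest of its group for Eif2b3, Eif2b4 and Eif2s2. The part of this difference in the subunit values was not tested. The 10 AT2 markers summed to 180287 to 188819 CPM (read counts scaled to a common library total) across the poly(A) libraries, and to 49014 to 90449 CPM across the total-RNA libraries. No 2 libraries of a group agreed within sampling noise, and each was counted as 1 replicate. That check cannot show that the libraries came from separate mice. Chi-square per degree of freedom was 3.5 for ISRIB 1 with 3 and 4.38 for ISRIB 2 with 4. The other ISRIB pairs were at 7.8 to 8.94. Bleomycin 3 with 5 was at 7.34, and the other bleomycin pairs at 16.6 to 46.2. The cause of these likenesses was not tested.

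ISRIB was first compared with vehicle, which asks whether the mRNAs of its target complex differ 24 h after the compound. None of the 7 members passed the test in either direction (edgeR quasi-likelihood test, adjusted p under 0.05), where 2.20% of the 12054 genes tested were called, 1.10% higher and 1.10% lower. The median log2 fold change of the members was 0.02, and that of all genes tested was -0.00014. In bulk libraries of sorted cells, fewer cells of a type and less RNA per cell cannot be told apart. At an unadjusted p under 0.05 there was 1 member, Eif2b4, against 1934 of the 12054 genes (16%). DESeq2 and limma-voom also called 0 of the members.

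Among the regulatory subunits, Eif2b4, which forms the delta side of the ISRIB pocket, differed most. Its level was 20.9, 17.999, 20.8 and 17.1 CPM (scaled to effective library size) in vehicle 1 to 4, and 21.9, 27.1, 23.5 and 23.7 CPM in ISRIB 1 to 4. The ISRIB values were all above the vehicle values, with ISRIB 1 closest to the vehicle range and ISRIB 2 highest. Groups failed to overlap in this way for 1 of the 7 members and for 8.65% of all genes (4.26% with ISRIB higher). The means were 19.2 ± 1.95 and 24.1 ± 2.21 CPM (SD, n = 4 each). The log2 fold change was 0.32 (SE 0.09, 95% interval 0.12 to 0.52), with an edgeR adjusted p of 0.0929, which missed the threshold. Under the alternatives tried its adjusted p ran from 0.0403 to 0.229, and it passed only without the filter on low counts.

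Eif2b2, the beta side of the same pocket, gave no such separation. It stood at 27.6, 23.2, 29.5 and 24.1 CPM in vehicle 1 to 4 and at 25.4, 24.8, 25.8 and 24.9 CPM in ISRIB 1 to 4. The ISRIB values all lay inside the vehicle range, and spanned much less of it. This gave a log2 fold change of -0.06 (SE 0.08, 95% interval -0.23 to 0.12, edgeR adjusted p 0.823). Whether Eif2b4 and Eif2b2 differed from each other in their response was not tested.

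Eif2b1, the alpha subunit that joins the regulatory parts, was at 23.6, 19.8, 18.9 and 19.8 CPM in vehicle 1 to 4 and at 21.1, 22.7, 19.3 and 21.7 CPM in ISRIB 1 to 4. The groups overlapped fully, since vehicle 1 was the highest library and vehicle 3 the lowest. Its log2 fold change was 0.05 (95% interval -0.14 to 0.24, edgeR adjusted p 0.863).

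The catalytic subunit Eif2b5 was at 50.5, 54.7, 56.4 and 58.3 CPM in vehicle 1 to 4 and at 55.2, 46.4, 50.4 and 53.4 CPM in ISRIB 1 to 4. ISRIB 2 and ISRIB 3 lay below every vehicle library, while the other two fell within the vehicle range. The log2 fold change was -0.10 (SE 0.07, 95% interval -0.24 to 0.05, edgeR adjusted p 0.531). Its partner Eif2b3 was at 9.21, 10.5, 8.65 and 9.99 CPM in vehicle 1 to 4 and at 9.64, 8.89, 6.89 and 11.1 CPM in ISRIB 1 to 4. The ISRIB libraries held both the lowest (ISRIB 3) and the highest (ISRIB 4) value of this gene, whose interval ran from -0.36 to 0.23 on the log2 scale (edgeR adjusted p 0.885).

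For the eIF2 substrate itself, Eif2s1 was at 29.6, 27.5, 29.2 and 31.4 CPM in vehicle 1 to 4 and at 33.0, 29.3, 34.1 and 34.4 CPM in ISRIB 1 to 4. In 3 of the 4 ISRIB libraries the level was above all vehicle libraries, and ISRIB 2 was inside their range. The log2 fold change of 0.15 (SE 0.08, 95% interval -0.01 to 0.31) did not pass (edgeR adjusted p 0.347). Eif2s2, the beta subunit, was at 41.1, 45.5, 41.5 and 50.5 CPM in vehicle 1 to 4 and at 43.4, 44.0, 45.9 and 47.9 CPM in ISRIB 1 to 4. All ISRIB values of Eif2s2 lay inside the vehicle range, and its log2 fold change was 0.02 (95% interval -0.13 to 0.18, edgeR adjusted p 0.924). The gamma subunit genes gave 0.14 for Eif2s3x (edgeR adjusted p 0.537) and 0.04 for Eif2s3y (0.852), with overlapping groups. For these 7 members the upper interval bounds were all at or below 0.52 and the lower bounds at or above -0.36 on the log2 scale.

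**Figure D1:**
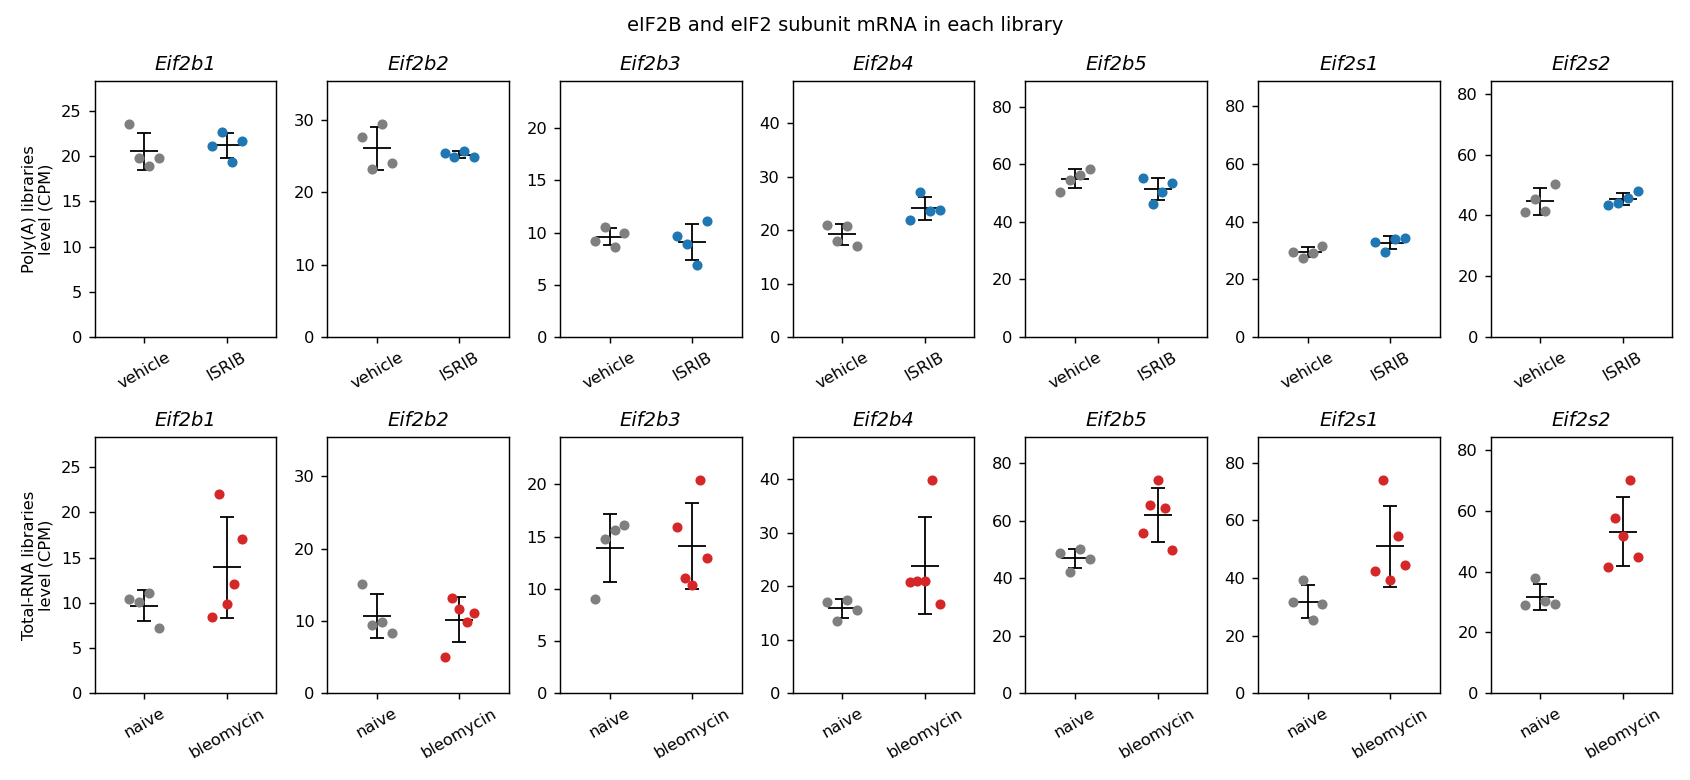
Level of each subunit mRNA in every library, in CPM on a linear axis from 0, with poly(A) libraries above and total-RNA libraries below; points are libraries, and bars give the group mean with its SD. Eif2b4 separates ISRIB from vehicle (17.1 to 20.9 against 21.9 to 27.1 CPM), and Eif2s1 and Eif2s2 separate bleomycin from naive.

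Bleomycin was next compared with naive, which asks how the same mRNAs stand in AT2 cells 14 days after lung injury. Of the 7 members, 3 rose and 0 fell (edgeR adjusted p under 0.05), where 20.5% of the 11223 genes tested were called, 11.2% higher and 9.31% lower. Before adjustment 4 members, with Eif2b4 added, had a p under 0.05, as did 33.3% of all genes. The members that rose were both eIF2 genes, Eif2s2 (1.67-fold) and Eif2s1 (1.59-fold), and the catalytic eIF2B gene Eif2b5 (1.32-fold). The median log2 fold change of the members was 0.53, and that of all genes tested was 0.0026. The count of 3 fell to 1, with Eif2s2 left, when naive 3 or naive 4 was left out.

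Eif2s2 was at 29.2, 38.0, 30.3 and 29.2 CPM in naive 1 to 4, and at 41.5, 57.7, 51.9, 70.2 and 44.8 CPM in bleomycin 1 to 5. The bleomycin values were all above the naive values, although naive 2 came near bleomycin 1 and stood apart from the other naive libraries. The means were 31.7 ± 4.26 (SD, n = 4) and 53.2 ± 11.4 CPM (SD, n = 5). On the log2 scale the change was 0.74 (SE 0.17, 95% interval 0.39 to 1.09, edgeR adjusted p 0.00410). This call held under each of the 16 alternatives tried, with log2 fold changes of 0.63 to 0.84 when single libraries were left out.

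Eif2s1 was at 31.5, 39.1, 25.5 and 31.0 CPM in naive 1 to 4, and at 42.3, 74.0, 39.2, 54.5 and 44.5 CPM in bleomycin 1 to 5. The groups did not overlap, but the margin between naive 2 and bleomycin 3 was only 39.10 against 39.18 CPM, and bleomycin 2 stood highest. Non-overlapping groups were found for 2 of the 7 members, Eif2s1 and Eif2s2, and for 19.7% of all genes (10.4% with bleomycin higher). The mean rose from 31.8 ± 5.58 (SD, n = 4) to 50.9 ± 14.1 CPM (SD, n = 5), a log2 fold change of 0.67 (SE 0.19, 95% interval 0.27 to 1.07, edgeR adjusted p 0.0167). The adjusted p became 0.0680 without naive 3 and 0.0548 without naive 4.

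The gamma subunit of eIF2 is encoded by a pair of genes, with values given for each. Eif2s3x was at 13.4, 13.2, 10.2 and 10.4 CPM in naive 1 to 4 and at 13.8, 20.8, 17.3, 16.4 and 20.7 CPM in bleomycin 1 to 5. All 5 bleomycin libraries lay above all naive libraries, with a narrow margin at bleomycin 1. The log2 fold change was 0.59 (SE 0.21, 95% interval 0.15 to 1.04), and the edgeR adjusted p of 0.0537 missed the threshold. The gene passed with DESeq2 (adjusted p 0.0470), without bleomycin 1 (edgeR, 0.0254) and without bleomycin 4 (edgeR, 0.0418). Eif2s3y, the Y-linked copy, was at 32.2 to 45.6 CPM in naive and 25.7 to 40.1 CPM in bleomycin libraries, which overlapped. Its log2 fold change was -0.22 (SE 0.16, edgeR adjusted p 0.36), and the difference between the copies was not tested.

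Within eIF2B, the catalytic subunit Eif2b5 was at 48.6, 42.3, 50.1 and 46.5 CPM in naive 1 to 4 and at 55.5, 65.3, 74.2, 64.4 and 49.9 CPM in bleomycin 1 to 5. In 4 of the 5 bleomycin libraries the level was above all naive libraries, and bleomycin 5 was just under naive 3. With a log2 fold change of 0.40 (SE 0.14, 95% interval 0.11 to 0.69, edgeR adjusted p 0.0453), the gene passed close to the threshold. The call was lost in 10 of the 16 alternatives: with upper-quartile factors (adjusted p 0.0528), with limma-voom (0.0619), without the filter on low counts (0.0533), and without naive 1 (0.0885), naive 2 (0.140), naive 3 (0.0739), naive 4 (0.111), bleomycin 2 (0.0703), bleomycin 3 (0.109) or bleomycin 4 (0.0538).

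Eif2b3, the other subunit of the catalytic part, was at 9.06, 14.7, 15.6 and 16.1 CPM in naive 1 to 4 and at 15.9, 11.01, 10.4, 20.4 and 12.99 CPM in bleomycin 1 to 5. Naive 1 was the lowest library and bleomycin 4 the highest, with the rest intermingled. The log2 fold change was 0.00025 (SE 0.25, 95% interval -0.53 to 0.53, edgeR adjusted p 1.0), so that a change of up to about that interval could not be told from none.

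Of the regulatory subunits, Eif2b4 was at 17.1, 13.5, 17.4 and 15.5 CPM in naive 1 to 4 and at 20.9, 20.9, 21.1, 39.9 and 16.6 CPM in bleomycin 1 to 5. In 4 of the 5 bleomycin libraries its level was above all naive libraries, and bleomycin 4 was far above the rest. This amounted to a log2 fold change of 0.58 (SE 0.24, 95% interval 0.08 to 1.08, edgeR adjusted p 0.0947), and without bleomycin 4 it was 0.33 (edgeR adjusted p 0.211).

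Eif2b1 was at 10.4, 10.04, 11.1 and 7.15 CPM in naive 1 to 4 and at 8.46, 22.02, 9.91, 12.1 and 17.1 CPM in bleomycin 1 to 5. The upper 3 bleomycin libraries exceeded all naive ones, and bleomycin 1 and 3 did not. Its log2 fold change was 0.53 (SE 0.29, 95% interval -0.07 to 1.14, edgeR adjusted p 0.208), and without bleomycin 2 it was 0.31 (edgeR adjusted p 0.496). Eif2b2 was at 15.1, 9.40, 9.91 and 8.35 CPM in naive 1 to 4 and at 5.03, 13.2, 11.6, 9.90 and 11.1 CPM in bleomycin 1 to 5, with 28 counts in naive 4 and 19 counts in the lowest library. Its highest value was in naive 1 and its lowest in bleomycin 1, and its log2 fold change was -0.05 (SE 0.29, 95% interval -0.66 to 0.56, edgeR adjusted p 0.926). The intervals of the 4 members that were not called reached up to 1.14 on the log2 scale, so they are not shown to be without change.

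Single libraries did not rank alike for the members. Bleomycin 2 was the highest of its group for Eif2b1, Eif2b2 and Eif2s1, bleomycin 4 for Eif2b3, Eif2b4 and Eif2s2, and bleomycin 3 for Eif2b5. Bleomycin 1 was the lowest for Eif2b1, Eif2b2 and Eif2s2. Whether the subunits responded differently from each other was not tested.

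**Figure D2:**
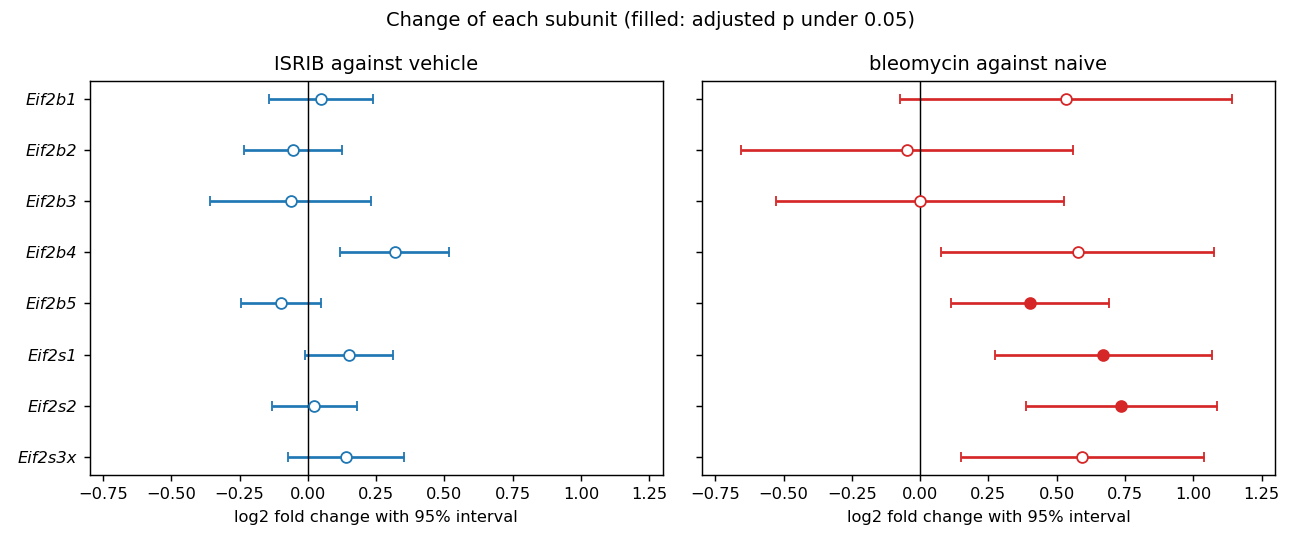
Log2 fold change of each subunit gene, with Eif2s3x added, for ISRIB against vehicle (left) and bleomycin against naive (right); bars are 95% intervals and filled points passed at an edgeR adjusted p under 0.05. All intervals but that of Eif2b4 cross 0 on the left, while Eif2b5, Eif2s1 and Eif2s2 are filled on the right, at 0.40, 0.67 and 0.74.

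Markers of other cells also differed between the bleomycin and naive libraries. AT2 markers summed to 79780 to 82038 CPM in naive and 49014 to 90449 CPM in bleomycin libraries, and of the 10 markers 2 were called higher and 1 lower. AT1 (alveolar type 1) markers were at 1064 to 1276 against 1875 to 2235 CPM, with 6 of 8 called higher. Fibroblast markers were at 4.47 to 10.6 against 17.8 to 119.9 CPM, and Lum was at 0 in every library. All 3 of the 8 that could be tested were called higher, where 11.2% of all genes were. The naive sums are too low for all 3 to have passed the low-count filter through naive libraries alone. Their calls as higher were thus in part set by that filter. Endothelial markers were at 15.8 to 23.0 against 16.5 to 58.0 CPM with 1 of 4 tested called higher, and airway markers at 449 to 882 against 494 to 980 CPM with 2 of 6 called higher. Macrophage and monocyte markers were at 6.45 to 9.41 against 6.76 to 10.3 CPM, with C1qa and Marco at 0 throughout, and lymphocyte markers at no more than 0.910 CPM. The part of these shifts in the subunit values was not tested. In the first experiment, AT1 markers were at 1995 to 2201 CPM in vehicle and 1975 to 2117 CPM in ISRIB libraries, and the fibroblast and endothelial sums overlapped between groups with 0 markers called. Airway markers were at 3764 to 4257 CPM in vehicle and 2386 to 4149 CPM in ISRIB libraries, also with 0 called. In that experiment 1 of the 10 AT2 markers and 1 of 3 tested macrophage and monocyte markers were called lower, and 6 of the 7 lymphocyte markers were at 0.

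Levels of different subunits were set beside each other only per length, as CPM per kb of the union of a gene's exons. In vehicle libraries the order was Eif2b5 (21.2 ± 1.29), Eif2b2 (13.8 ± 1.57), Eif2b1 (7.96 ± 0.804), Eif2b4 (7.39 ± 0.751), Eif2s2 (6.61 ± 0.644), Eif2s1 (5.95 ± 0.327) and Eif2b3 (1.47 ± 0.125 CPM per kb; SD, n = 4). Eif2b5, Eif2b2 and Eif2b3 were each separated from their neighbours without overlap, and the other four formed a run in which each overlapped the next. In ISRIB libraries Eif2b4, at 9.26 CPM per kb, ranked ahead of Eif2b1, at 8.21, and these 2 neighbours overlapped.

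In naive libraries of the second experiment Eif2b5 again led, at 18.1 ± 1.31 CPM per kb, and Eif2b3 was last at 2.13 ± 0.50 (SD, n = 4). Between them came Eif2s1 (6.42), Eif2b4 (6.11), Eif2b2 (5.67), Eif2s2 (4.69) and Eif2b1 (3.75 CPM per kb), of which only Eif2s2 and Eif2b1 were neighbours without overlap. In bleomycin libraries Eif2b5 was at 23.8 ± 3.62, followed by Eif2s1 (10.3), Eif2b4 (9.19), Eif2s2 (7.88), Eif2b1 (5.39), Eif2b2 (5.39) and Eif2b3 (2.17 CPM per kb; n = 5), and only Eif2b5 stood clear of its neighbour. With the longest transcript as the length, the order of the middle genes shifted, while Eif2b5 stayed first and Eif2b3 last by mean in all 4 groups. The last place of Eif2b3 rests in part on its annotated length (6520 bp of exons, longest transcript 3754 bp). In naive libraries its mean of 13.9 CPM was above those of Eif2b1 (9.68) and Eif2b2 (10.7). In vehicle libraries it was lowest in CPM as well (9.59). The separations depended on the length. With the longest transcript, Eif2b5 reached down to 19.5 CPM per kb in bleomycin libraries and overlapped Eif2s1, which reached 21.7. In naive libraries Eif2b1 then overlapped Eif2b3.

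**Figure D3:**
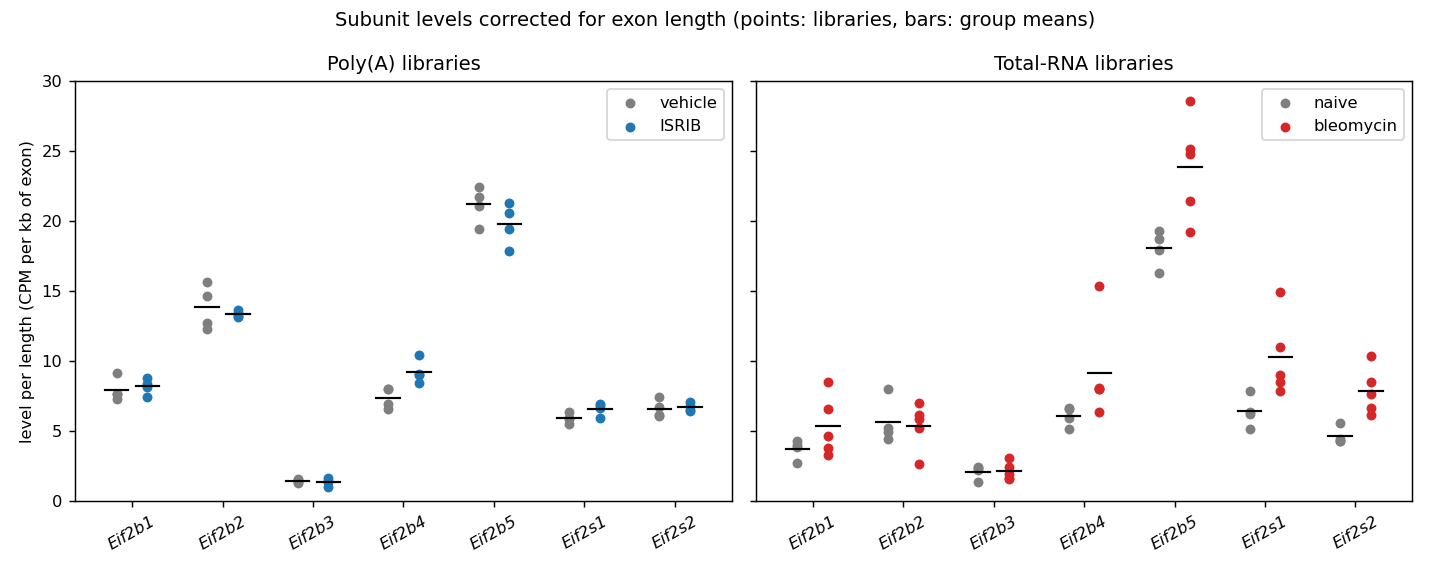
Level per length of each subunit, in CPM per kb of exon, for poly(A) (left) and total-RNA libraries (right); points are libraries, black bars group means, and the linear axis starts at 0. Eif2b5 is highest and Eif2b3 lowest in every group, from 21.2 to 1.47 CPM per kb in vehicle libraries.

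The mean level per length of the 5 eIF2B genes was also divided by that of Eif2s1 and Eif2s2 in each library, as a description of the balance between the exchange factor's and the substrate's mRNA. The ratio was 1.75, 1.62, 1.80 and 1.48 in vehicle 1 to 4 and 1.61, 1.66, 1.48 and 1.51 in ISRIB 1 to 4. The groups overlapped, with means of 1.66 ± 0.14 and 1.57 ± 0.08 (SD, n = 4 each). The ratio was 1.45, 0.965, 1.58 and 1.27 in naive 1 to 4 and 1.03, 0.859, 1.24, 0.995 and 1.03 in bleomycin 1 to 5. Only bleomycin 2 lay below all naive libraries, and naive 2 was lower than 4 of the 5 bleomycin libraries. The means were 1.31 ± 0.27 (SD, n = 4) and 1.03 ± 0.14 (SD, n = 5), a difference of -0.28 that is about the SD of the naive group. The absolute ratios depend on the length used: with the longest transcript, the vehicle mean was 1.23 and the naive mean 0.990.

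RefSeq promoter windows (GRCm38.p6, 250 bases before to 50 after the start) matched 6 of the 7 members, all but Eif2b3. The RefSeq start is that of GENCODE for Eif2b1, Eif2b2 and Eif2b5. GENCODE places an earlier start 29 bases ahead for Eif2s2, 253 bases ahead for Eif2s1 and 291 bases ahead for Eif2b4, so that the windows of Eif2s1 and Eif2b4 lie wholly inside the GENCODE gene. Stretches are printed for the eIF2 genes, both of which rose after bleomycin, and for Eif2b2 and Eif2b4, which encode the ISRIB pocket. Eif2s2 is given ahead of both starts, at chr2:154892936-154893156 (reverse strand), and Eif2b2 to 30 bases past its start, at chr12:85219231-85219510 (forward). For Eif2s1 and Eif2b4, 30 bases around each motif match are given, at chr12:78862039-78862068 (forward) and at chr5:31193187-31193216 and chr5:31193121-31193150 (reverse). The sequences run 5′ to 3′ on the gene's strand, and capitals mark motif matches.
Eif2s2: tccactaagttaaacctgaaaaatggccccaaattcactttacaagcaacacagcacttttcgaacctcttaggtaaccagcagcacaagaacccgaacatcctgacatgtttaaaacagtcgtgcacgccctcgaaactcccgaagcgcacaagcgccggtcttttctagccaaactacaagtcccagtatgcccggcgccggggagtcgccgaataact
Eif2b2: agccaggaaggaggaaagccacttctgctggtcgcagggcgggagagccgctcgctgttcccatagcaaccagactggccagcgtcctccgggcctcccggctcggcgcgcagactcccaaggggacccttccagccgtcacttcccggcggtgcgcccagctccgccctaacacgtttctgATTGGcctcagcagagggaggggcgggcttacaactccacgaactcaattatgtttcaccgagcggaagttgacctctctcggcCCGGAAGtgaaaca
Eif2s1, NRF1 core: gaggtggctccGCATGCGCgctgggttggg
Eif2b4, CCAAT box: ggagacgctcctaATTGGgaacccaacatc
Eif2b4, ETS core: acccagtgcacgCCGGAAGttgtagtccgc

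Motifs of 5 kinds were searched on both strands of the 300-base windows, and no match overlapped another. The core site of NRF1, a factor known for genes of mitochondria and growth (GCATGCGC), occurred in Eif2s1 alone, from 22 bases before the RefSeq start, and in 2.71% of all 32851 promoters. The core of ETS factors (CCGGAAG) occurred in Eif2b2 and Eif2b4, just past the RefSeq start in both, and in 8.86% of promoters. The CCAAT box (CCAAT) occurred in Eif2b2, Eif2b4 and Eif2b5, and in 37.41% of promoters. In Eif2b2 and Eif2b4 it lay 68 and 64 bases before the RefSeq start, on the reverse strand as ATTGG. The core of the site bound by ATF4 with its partners (TGATGNAA, 3.97% of promoters) and the E-box (CACGTG, 7.15%) matched 0 of the 6 windows. Eif2b1 and Eif2s2 held none of the 5 motifs in their windows. The windows of Eif2s1 and Eif2s2 had 53.0% and 53.3% G or C bases, and those of Eif2b2 and Eif2b4 had 62.7% and 64.7%, against a median of 52.7% over all promoters. A match describes letters in the sequence and was not tested for binding.

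Genes that act with the members were described by 3 lists. The first held 16 partners in the eIF2 cycle, among them the gamma subunit genes. In the ISRIB comparison 0 of the 16 passed in either direction, where 2.20% of all genes were called. Their median log2 fold change was 0.04, and 3 had an unadjusted edgeR p under 0.05, as did 16% of all genes. Before adjustment 5 of the 16 had an edgeR p under 0.05 after bleomycin, as did 33.3% of all genes. After adjustment 1 rose and 0 fell, with a median of 0.17, where 11.2% of all genes were called higher and 9.31% lower. That gene was Bzw1, which encodes a mimic of the eIF5 protein, at 73.7 ± 7.19 CPM in naive and 109.8 ± 25.7 CPM in bleomycin libraries (log2 fold change 0.58, SE 0.16, edgeR adjusted p 0.0137, and 0.0654 without naive 4).

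The second list held 13 genes for the kinases that phosphorylate eIF2 alpha, the phosphatase that removes the mark, and their regulators. After ISRIB 0 rose and 1 fell, against 2.20% of all genes called, with a list median of 0.0054. Before adjustment 4 of the 13 had an edgeR p under 0.05, as did 16% of all genes. Impact, an inhibitor of the kinase GCN2, was at 15.1 ± 1.67 CPM in vehicle and 11.1 ± 1.07 CPM in ISRIB libraries, which did not overlap. Its log2 fold change was -0.44 (SE 0.11, edgeR adjusted p 0.0496). That call was lost with limma-voom (adjusted p 0.0582) and without vehicle 1, 2 or 3 or ISRIB 2, 3 or 4 (edgeR adjusted p 0.0911 to 0.155). After bleomycin 1 rose and 2 fell, against 11.2% and 9.31% of all genes, with a list median of 0.11. Before adjustment 5 of the 13 had an edgeR p under 0.05, as did 33.3% of all genes. Ppp1ca, a catalytic subunit of protein phosphatase 1, rose by 0.45 on the log2 scale (SE 0.13, edgeR adjusted p 0.0228), a call lost without naive 2, 3 or 4 (0.0521 to 0.105). It shares exon bases with other gene models on the opposite strand, up to 8.93% of its exon length with Rad9a. Eif2ak4, the gene of GCN2 itself, was at 80.4 ± 3.38 CPM in naive and 56.2 ± 9.09 CPM in bleomycin libraries, which did not overlap (log2 fold change -0.52, SE 0.13, edgeR adjusted p 0.00835), and held under all 16 alternatives. Impact was lower here as well (-0.72, SE 0.23, edgeR adjusted p 0.0316), a call lost without naive 1, 2 or 4 or bleomycin 2, 3 or 5 (0.0571 to 0.116).

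The third list held 34 known targets of the integrated stress response, such as the genes that ATF4 switches on. In the ISRIB comparison 30 were tested, and 1 rose (Slc3a2) and 1 fell (Psat1), with a median of 0.08, where 2.20% of all genes were called. Before adjustment 12 of the 30 had an edgeR p under 0.05, as did 16% of all genes. Slc3a2, the heavy chain of amino acid transporters, had a log2 fold change of 0.35 (SE 0.07, edgeR adjusted p 0.0137, and 0.0566 without vehicle 1). Psat1, an enzyme of serine synthesis, had -0.82 (SE 0.15, edgeR adjusted p 0.00945). After bleomycin 27 were tested, and 6 rose and 3 fell, with a median of 0.22, where 20.5% of all genes were called, 11.2% higher and 9.31% lower. Before adjustment 14 of the 27 had an edgeR p under 0.05, as did 33.3% of all genes. The largest rises were those of the mitochondrial folate enzyme Mthfd2 (1.61, SE 0.47, edgeR adjusted p 0.0188), Psat1 (1.47, SE 0.37, 0.00880) and Sesn2, a stress-induced inhibitor of mTORC1 signalling (0.85, SE 0.18, 0.00246). Mthfd2 was at only 1.94 ± 1.17 CPM in naive and 6.18 ± 1.97 CPM in bleomycin libraries. It could not have passed the filter on low counts through naive libraries alone, so its call as higher was in part set by that filter. The falls were those of the glycine transporter Slc6a9 (-1.0, SE 0.24, edgeR adjusted p 0.00720), the stress protein gene Nupr1 (-0.82, SE 0.16, 0.00119) and the lipoprotein receptor Vldlr (-0.79, SE 0.20, 0.0104). Calls were lost for Mthfd2 without naive 1 (0.0699) or naive 3 (0.0708), for Psat1 with limma-voom (0.0819) and for Vldlr without naive 2 (0.0601). Of these genes, Slc6a9 shares exon bases with other gene models on the opposite strand, up to 27.8% of its exon length with Ccdc24. The subunit median of 0.53 after bleomycin lay above the medians of the 3 lists, a difference that was not tested.

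**Figure D4:**
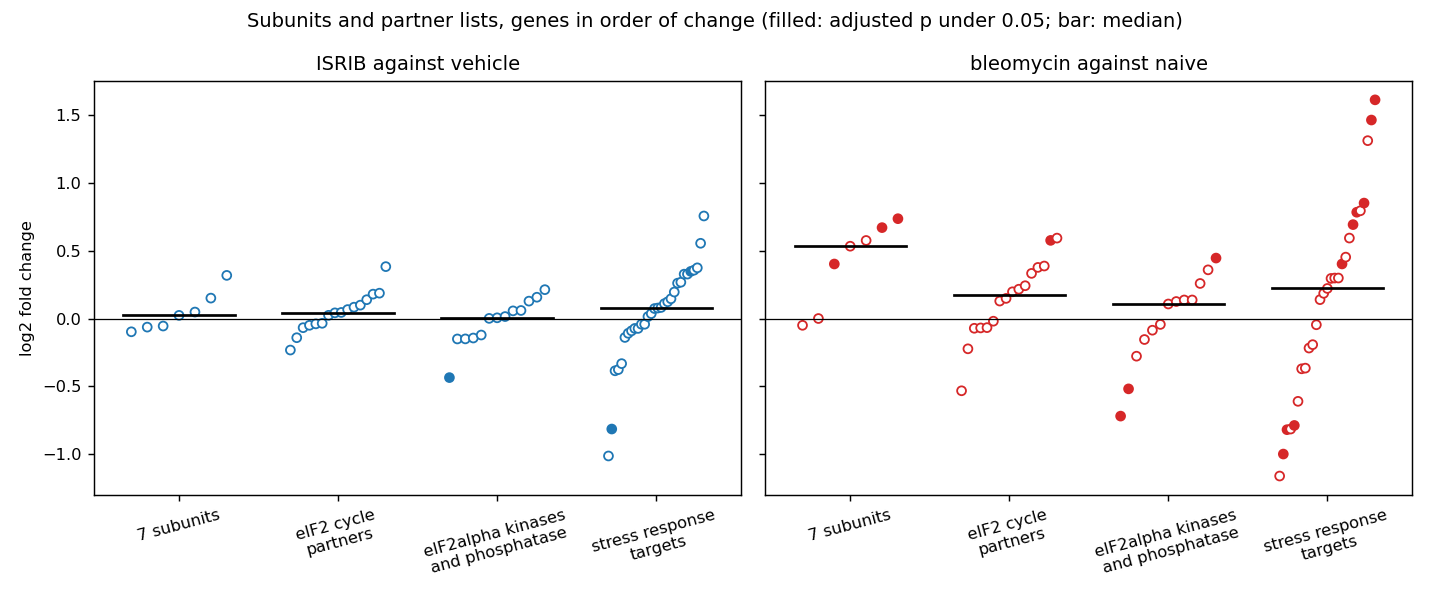
Log2 fold changes of the 7 subunits and of the tested genes of the 3 partner lists, for ISRIB (left) and bleomycin (right), with genes in order of change; filled points passed at an edgeR adjusted p under 0.05 and bars are medians. The subunit median is 0.02 on the left and 0.53 on the right, beside list medians of 0.0054 to 0.08 and 0.11 to 0.22.

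The genes whose profile over the 17 libraries was most like that of the subunits were found by the root-mean-square difference of log2 values, each centred on the control group of its experiment, among 7330 genes with at least 10 CPM on average in both. Among the nearest to the mean of the 5 eIF2B genes were Hdac1 (0.0771) and Akr1a1 (0.0827), where the median gene was at 0.291. Nearest to the mean of Eif2s1 and Eif2s2 were Strap (0.0942), Dynlrb1 (0.116) and Grn (0.121), where the median gene was at 0.456. Nearest to the mean of the pocket genes Eif2b2 and Eif2b4 were Unc119 (0.129), Wfdc2 (0.130) and Ppme1 (0.131), with a median of 0.334. These distances include the difference between groups, and the libraries come from 2 kits.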

How the data were processed

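Per the submitters' processing notes, the authors' pipeline named bcl2fastq 2.19.1, FastQC, Trimmomatic 0.36, STAR 2.6.0, HTSeq 0.11.2 and build mm10. The authors deposited raw counts of reads per Ensembl gene ID, in 1 table for each kit. That unit was inferred from the whole-number values, while annotation and strand setting were not stated.

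Symbols, positions and exon lengths came from GENCODE M21 (GRCm38). Each experiment was fitted separately: filterByExpr (minimum count 10, minimum total 15, by group), TMM factors, and edgeR 4.0.16's quasi-likelihood F test (two-sided, R 4.3.3), adjusted by Benjamini-Hochberg over all genes tested. CPM use effective library sizes. Markers use library totals. The SE is the unshrunk log2 fold change over the root of F. Profile likeness used log2(CPM + 0.5). Near-identical transcripts were found with blastn 2.17.0 (at least 95% over 100 bp).

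Alternatives were DESeq2 1.42.0 and its size factors, upper-quartile factors, limma-voom (limma 3.58.1), no low-count filter, no structural or mitochondrial RNA, a replicate block, each library left out, and, for the ratio, longest transcript and library total. The procedure was tested on simulated data, with fewer changed genes than were called here. With the ISRIB libraries' settings it recovered 25.4% of genes changed by 0.3 on the log2 scale and 69.2% of those changed by 0.6. With the bleomycin settings it recovered 3.03% and 23.9%. A gene not called is therefore not shown to be without change. Unchanged genes made up 8.33% and 10.6% of the simulated calls (11 and 7 genes). Both shares are above the rate of 0.05 that the threshold sets, so some calls made here may be false. The named genes were the members, the gamma subunit genes, up to 3 called genes per list and direction, and the 3 genes nearest in profile, of which 1 is not reported here. Members, lists and motifs were chosen with earlier results of these data known.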

Additional observations from a re-analysis of the deposited data

Results flagged for a closer look

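In 2 of the 28 groups of values checked (7 members in 4 groups), 1 library lay far from the others of its group by Dixon's test, which chance alone passes in about 5% of groups. Eif2b4 was at 39.9 CPM in bleomycin 4, and the next highest library of that group was at 21.1 CPM. That gap was 0.81 of the group's range, above a critical value of 0.71. Eif2s2 was at 38.0 CPM in naive 2, and the next highest naive library was at 30.3 CPM. That gap was 0.871 of the range, which also passed. Without naive 2 the log2 fold change of Eif2s2 after bleomycin was 0.84 (edgeR adjusted p 0.00554). The cause of either value was not tested.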

How the results depend on the processing

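For ISRIB, members called stayed at 0 in 14 of 15 alternatives and was 1 (Eif2b4) without the low-count filter. The count over all genes was 265, against 408 with DESeq2, 648 without the filter and 86 to 269 with single libraries left out (86 without vehicle 1, 102 without vehicle 2, 159 without ISRIB 4). Partner-list calls, 3 in the main test, were 8 with DESeq2, 10 without the filter and 1 to 5 with single libraries left out (1 without vehicle 1, 5 without vehicle 4 or ISRIB 1). With single libraries left out, log2 fold changes spanned 0 for Eif2s2 (-0.013 to 0.083, turning without vehicle 1, vehicle 3 or ISRIB 4), Eif2b2 (-0.11 to 0.014, turning without vehicle 3) and Eif2b3 (-0.16 to 0.045, turning without ISRIB 3). None of these genes was called in those fits.

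For bleomycin, the member median of 0.53 was 0.48 with limma-voom and 0.39 to 0.63 with single libraries left out. Members called ran from 1 to 3 with single libraries left out (1 without naive 3 or naive 4), partner-list calls from 7 to 16 around 13 (8 without naive 1, 7 without naive 2 or naive 4), and calls over all genes from 1554 to 2584 around 2304. The direction of Eif2b3 turned with upper-quartile factors (-0.016), with limma-voom (-0.091) and without structural RNA and mitochondrial gene models (-0.0023). With single libraries left out it ran from -0.16 to 0.10, turning without naive 1, bleomycin 1 or bleomycin 4, and that of Eif2b2 from -0.15 to 0.15, turning without naive 1 or bleomycin 1. The difference in the ratio of eIF2B to eIF2 kept its sign under all alternatives tried (-0.15 to -0.05 for ISRIB and -0.40 to -0.20 for bleomycin). Of these, the library total could not change it, since the scaling cancels within a library. Without the filter the median log2 fold change was -0.27 over all 26897 genes then tested and 0.02 over the genes of the main test. The causes were not tested.

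Deviations of same-numbered libraries correlated at -0.114 to 0.0804 in the first experiment and -0.0395 to 0.0475 in the second. For libraries of different number the range was -0.17 to 0.142 in the first and -0.162 to 0.107 in the second. Same-numbered libraries thus showed no stronger shared deviation, but so few pairs cannot decide whether the numbers pair the libraries. With the number as a replicate block, calls over all genes were 277 and 2187, members called 0 and 3, partner-list calls 5 and 9, and the member median after bleomycin 0.47. Under the block the edgeR calls of Impact (adjusted p 0.0622 and 0.0871) and Ppp1ca (0.0635) were lost.

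Members had 19 to 479 counts per total-RNA library, where the variation between replicates was also larger (21.1% against 7.66%), and the part of either in the width of the intervals was not tested.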
